A study of Mus musculus with 7 samples.

Results

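Inhibitory checkpoint receptors are surface proteins that restrain activated lymphocytes, and 10 of them were followed here by transcript level. They were chosen by gene symbol, Pdcd1, Ctla4, Lag3, Havcr2, Tigit, Btla, Cd160, Cd244a, Vsir and Cd96, which make up 10 of the 56422 symbols in the deposited table. All 10 were found, in 27 transcript rows. The 7 mouse libraries were labelled as CD8+ T cells taken from the ascites of animals carrying peritoneal metastases, within a series whose title concerns mannose and anti-PD-1 therapy of ovarian cancer. In 4 control libraries the treatment is given as none, and 3 came from animals given propionate together with butyrate, which gut bacteria release when they ferment fibre. Strain, age, tumour line, dose and duration are not given in the sources used here. Nothing states that the libraries are of different mice, so the p-values speak to variation among these 7 libraries, and that variation may be technical.

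Expression is in TPM, a length-corrected share of all transcripts with the same total in every library, so sequencing depth is unknown. Mitochondrially encoded genes took 32.9% of TPM in the third treated library and 13.6% to 18.2% in the other 6. The labelled cell type was checked against 10 T cell markers. Their summed TPM was 104 to 166 in control and 455 to 1972 in treated libraries. All 10 rose, where 4.30% of all tested genes did (limma, Benjamini-Hochberg adjusted p under 0.05). Markers of other cells were present beside them. The 8 macrophage and monocyte markers summed to 4642 to 10676 TPM in control and 2451 to 3152 in treated libraries. By the same test 1 rose, Ly6c2, and 1 fell, Apoe, where 4.30% and 7.59% of all tested genes did. Apoe made up most of these sums, at 3741 to 8468 and 1417 to 2316 TPM. C1qa, C1qc and Csf1r also lay lower in every treated library than in every control, as did 25.7% of tested genes. C1qb, Cd68 and Adgre1 overlapped. Relative to the T cell gene Cd3e, taken up below, Ly6c2 did not pass (log2 difference -0.48, limma adjusted p = 0.446). The other 7 of these markers were lower in that comparison, as were 96.5% of all genes. The 7 epithelial and mesothelial markers summed to 2145 to 2651 TPM in control and 815 to 1532 in treated libraries. Of the 6 tested 5 fell, where 7.59% of all tested genes did. No marker of either list was at 0 in all libraries. In bulk RNA, fewer cells of a type and less RNA per cell cannot be told apart.

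These receptors share a common logic. PD-1, encoded by Pdcd1, and CTLA-4 are induced when a T cell is stimulated, bind ligands on tumour or antigen-presenting cells, and either recruit phosphatases that shorten the receptor signal or compete for the ligands of activating receptors. T cells under persistent stimulation in tumours often carry several of them at once, the state called exhaustion, and antibodies against PD-1 and CTLA-4 are used as therapy. The receptors are not all confined to T cells. VISTA, encoded by Vsir, TIM-3, encoded by Havcr2, and 2B4, encoded by Cd244a, are examples also made by myeloid or natural killer cells. BTLA is also made by B cells.

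Of the 10 receptors, 8 rose in the treated libraries and 0 fell, against a background of 4.30% of 14967 tested genes that rose and 7.59% that fell (limma on log2(TPM + 1), Benjamini-Hochberg adjusted p under 0.05). At an unadjusted p under 0.05 the numbers were also 8 and 0. The same 8 had every treated library above every control library, a pattern found in 4.82% of tested genes. The opposite pattern held for 0 of the 10 and for 25.7% of tested genes. Cd244a and Vsir did not pass the test. The median log2 difference over the 10 was 1.98, beside -0.24 over all tested genes. All 10 passed the filter of at least 1 TPM in at least 3 libraries, but Ctla4 and Cd160 were below 1 TPM in some control libraries and passed through the treated libraries. The rule that picks the receptors is by name, but they were taken up with earlier results of these data known.

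**Figure D1:**
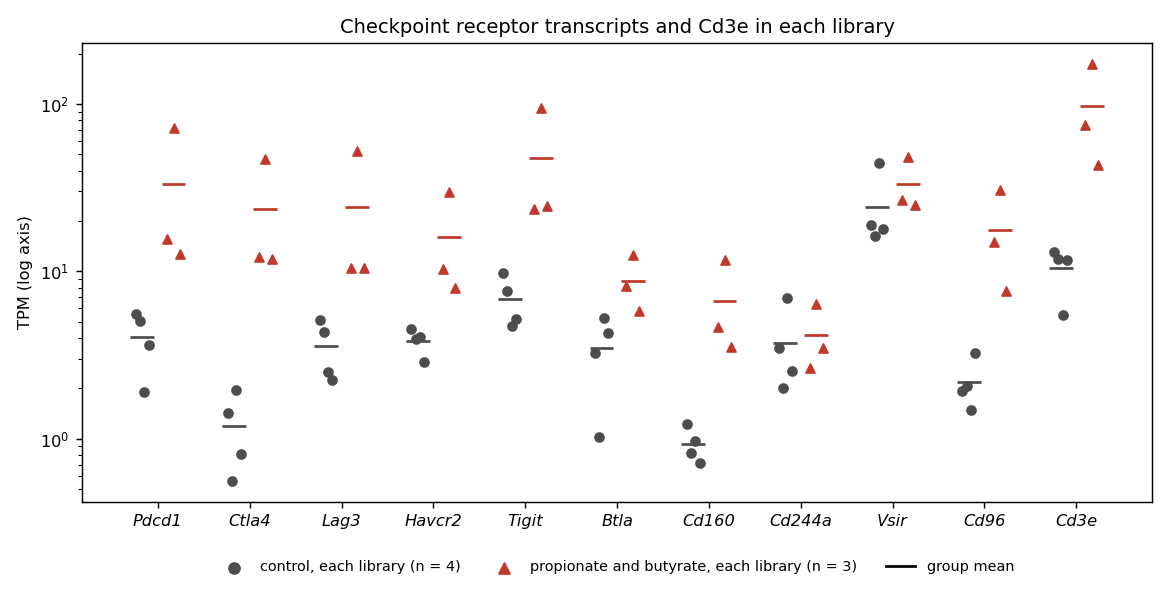
TPM of the 10 receptors and of Cd3e, on a log axis, for each of the 4 control libraries (circles) and 3 treated libraries (triangles), with the group mean as a bar. The groups do not overlap for 8 of the 10 receptors, and they overlap for Cd244a and Vsir.

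Pdcd1, the receptor for PD-L1 and PD-L2, stood at 5.54, 5.03, 1.90 and 3.65 TPM in control replicates 1 to 4. It was at 15.7 and 71.7 TPM in treated replicates 1 and 2 and at 12.6 TPM in the third treated library. All treated libraries lay above all controls, and treated replicate 2 lay far above the other treated libraries, at 5.07 times their mean. The log2 difference was 2.41 (SE 0.46, limma, Benjamini-Hochberg adjusted p = 0.00408). It was 1.65 without treated replicate 2 (adjusted p = 0.000505), and with robust variance estimation, which shrinks genes of unusual spread less, the call was lost (adjusted p = 0.0849). Ctla4, which binds CD80 and CD86 in competition with CD28, was low in control libraries, at 1.42, 0.56, 1.94 and 0.81 TPM. In treated replicates 1 and 2 it reached 12.2 and 46.7 TPM, and in the third treated library 11.8 TPM. Its difference was the largest of the 10 on this scale, 3.24 (SE 0.39, limma, Benjamini-Hochberg adjusted p = 0.000414), 2.62 without treated replicate 2, and 2.00 with a pseudocount of 5. CTLA-4 is also carried by regulatory T cells. Of their markers, Foxp3, the defining transcription factor, was at 0.18 to 0.26 TPM in control and 0.49 to 0.70 TPM in treated libraries, without overlap but under the filter. Tnfrsf18 was at 4.96 to 6.79 and 7.15 to 21.3 TPM and rose by 1.00 (limma, Benjamini-Hochberg adjusted p = 0.0368). Ikzf2 was at 1.79 to 3.08 and 2.85 to 5.36 TPM and did not pass (adjusted p = 0.138). Cd4 was at 0.40 to 1.41 and 0.84 to 2.16 TPM and did not pass (adjusted p = 0.25). Il2ra, under the filter, was at 0.14 to 0.93 and 0.59 to 0.80 TPM, highest in a control library. The 5 markers of CD4 and regulatory T cells summed to 7.86 to 12.0 and 13.5 to 29.9 TPM. Of the 3 tested 1 rose, Tnfrsf18, where 4.30% of all tested genes did. Relative to the T cell gene Cd3e, taken up below, all 3 were lower, as were 96.5% of all genes. The part of these markers in the Ctla4 result was not tested.

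Lag3, a CD4-like receptor for MHC class II, was at 5.13, 4.36, 2.51 and 2.25 TPM in the control libraries and at 10.5, 52.0 and 10.5 TPM in treated replicates 1 and 2 and the third treated library. The difference was 2.12 (SE 0.44, limma, Benjamini-Hochberg adjusted p = 0.00691). Havcr2, whose product TIM-3 binds galectin-9, was at 4.52, 3.96, 4.05 and 2.87 TPM against 10.4, 29.6 and 7.93 TPM, a difference of 1.60 (SE 0.34, limma, Benjamini-Hochberg adjusted p = 0.00805). The controls were close together for Havcr2 and more spread for Lag3. For both genes the excess of treated replicate 2 was large, 4.96 and 3.24 times the mean of the other treated libraries. Without that library the log2 differences of Lag3 and Havcr2 were 1.39 and 1.07, and both still passed (limma, Benjamini-Hochberg adjusted p = 0.00223 and 0.013). Without control replicate 3 and the third treated library together, Lag3 differed by 2.38 and did not pass (adjusted p = 0.0706), nor did it with robust variance estimation (adjusted p = 0.0979).

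Tigit and Cd96 encode receptors that share the ligand CD155, the product of Pvr, with the activating receptor CD226. Tigit had the highest treated mean of the 10, carried by treated replicate 2, while Vsir was above it in the other treated libraries. It was at 9.75, 7.62, 4.72 and 5.19 TPM in control libraries and at 23.7, 95.1 and 24.6 TPM in treated replicates 1 and 2 and the third treated library, a difference of 2.38 (SE 0.39, limma, Benjamini-Hochberg adjusted p = 0.00183). The difference was 1.73 without treated replicate 2 (adjusted p = 9.8e-05), and robust variance estimation ended the call (adjusted p = 0.0536). Cd96 was at 1.93, 2.05, 1.48 and 3.24 TPM in control libraries and at 15.0, 30.5 and 7.65 TPM in treated ones, with a difference of 2.39 (SE 0.35, limma, Benjamini-Hochberg adjusted p = 0.000856). The 2 differences were alike in size, but the treated libraries were spread otherwise: treated replicate 1 stood level with the third treated library for Tigit and well above it for Cd96.

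Btla and Cd160 bind the same ligand, HVEM, encoded by Tnfrsf14. Btla was at 3.24, 1.02, 5.28 and 4.30 TPM in control libraries and at 8.15, 12.5 and 5.77 TPM in treated ones. Control replicate 3 and the third treated library were close to each other. Its difference of 1.20 (SE 0.35, limma, Benjamini-Hochberg adjusted p = 0.0402) was lost without control replicate 2 (0.86, adjusted p = 0.0676) or without any of the 3 treated libraries (0.94 to 1.44, adjusted p = 0.0809 to 0.0884), and with robust variance estimation (adjusted p = 0.0654) or a pseudocount of 0.1 (1.47, adjusted p = 0.0532). The 7 B and plasma cell markers summed to 39.0 to 131 TPM in control and 88.1 to 123 TPM in treated libraries, none of the 7 rose or fell (limma, adjusted p under 0.05, with 1 higher and 0 lower at an unadjusted p under 0.05), and their part in the Btla values was not tested. Cd160 encodes a lipid-anchored receptor of natural killer and cytotoxic T cells. It was at 1.23, 0.82, 0.97 and 0.72 TPM in control and 4.67, 11.8 and 3.52 TPM in treated libraries, with a difference of 1.84 (SE 0.31, limma, Benjamini-Hochberg adjusted p = 0.00202). The 6 natural killer markers summed to 15.2 to 24.7 TPM in control and 78.3 to 277 TPM in treated libraries. Of these 3 were tested and all 3 rose, where 4.30% of all tested genes did. Those 3, Klrk1, Klrd1 and Eomes, are also expressed by CD8+ T cells. The other 3 were under the filter and were not tested. Each had every treated library above every control, at low TPM. That pattern was found in 4.82% of tested genes, which do not include these 3, and its share among genes under the filter was not computed. Ncr1 was at 0.21 to 0.55 TPM in control and 0.67 to 1.12 TPM in treated libraries, Klrb1c at 0.15 to 0.70 and 0.79 to 2.96 TPM, and Klra8 at 0.19 to 0.77 and 0.83 to 2.10 TPM. The part of these markers in the Cd160 result was not tested.

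The rows of the table add detail for Cd160. Its 3 transcript rows carry no identifier beyond the symbol. The row with the most TPM had a control mean of 0.31 ± 0.216 TPM (SD, n = 4) and a treated mean of 5.57 ± 3.99 TPM (SD, n = 3). For the next row the means were 0.44 ± 0.216 TPM (SD, n = 4) and 0.52 ± 0.132 TPM (SD, n = 3). The leading row therefore held 0% to 47.6% of the gene's TPM in control and 77.1% to 86.5% in treated libraries. Splits between transcripts are the authors' estimates and at these low levels rest on few reads. The other 7 receptors that rose were carried mainly by their leading row, which held at least 86.0% of the gene's TPM in every library.

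Cd244a and Vsir behaved differently in these libraries. Cd244a, whose product 2B4 binds CD48, was at 3.48, 2.00, 6.95 and 2.53 TPM in control and 2.65, 6.39 and 3.46 TPM in treated libraries. The highest single value was in a control library, and the difference was 0.16 (SE 0.33, limma, Benjamini-Hochberg adjusted p = 0.76). Vsir was the most abundant of the 10 in the control group, at 18.9, 16.3, 44.2 and 17.8 TPM, and was at 26.8, 48.1 and 24.8 TPM in treated libraries. Its difference of 0.50 (SE 0.32, limma, Benjamini-Hochberg adjusted p = 0.303) was 0.81 without control replicate 3, where it passed the test (adjusted p = 0.0464). Both genes peaked among controls in control replicate 3, as did Ctla4 and Btla, which rose. That library also held the most macrophage and monocyte marker TPM, 10676 against 4642 to 5315 in the other controls. The same held for neutrophil markers, 418 against 18.2 to 114 TPM, and for B and plasma cell markers, 131 against 39.0 to 109 TPM. It was also lowest for Cd3e, at 5.47 TPM. The part of these in the Cd244a and Vsir values was not tested.

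The order of mean levels differed between the groups. In control libraries Vsir, at 24.3 ± 13.3 TPM (SD, n = 4), was above every other receptor in all 4 libraries, and its range did not overlap that of Tigit, the next at 6.82 ± 2.33 TPM (SD, n = 4). From Tigit down to Cd160, at 0.935 ± 0.222 TPM (SD, n = 4), each neighbour in the order overlapped the next. In treated libraries the order by mean began with Tigit at 47.8 ± 41.0 TPM (SD, n = 3) and Pdcd1 at 33.3 ± 33.3 TPM (SD, n = 3), and it ended with Cd244a at 4.17 ± 1.97 TPM (SD, n = 3). That order rests on treated replicate 2. In treated replicate 1 and the third treated library Vsir was the highest of the 10, as in the controls, at 26.8 and 24.8 TPM against 23.7 and 24.6 TPM for Tigit. No neighbours in that order were separated beyond their ranges. As a share of the summed TPM of the 10, Vsir made up 34.3% to 59.7% in control and 11.9% to 22.0% in treated libraries. The share of Ctla4 was 1.28% to 2.62% and 9.39% to 11.5%. Shares of Ctla4, Tigit and Cd160 were higher and those of Vsir and Cd244a lower in every treated library than in every control. The sum of the 10 was 43.4 to 74.0 TPM in control and 113 to 404 TPM in treated libraries.

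**Figure D2:**
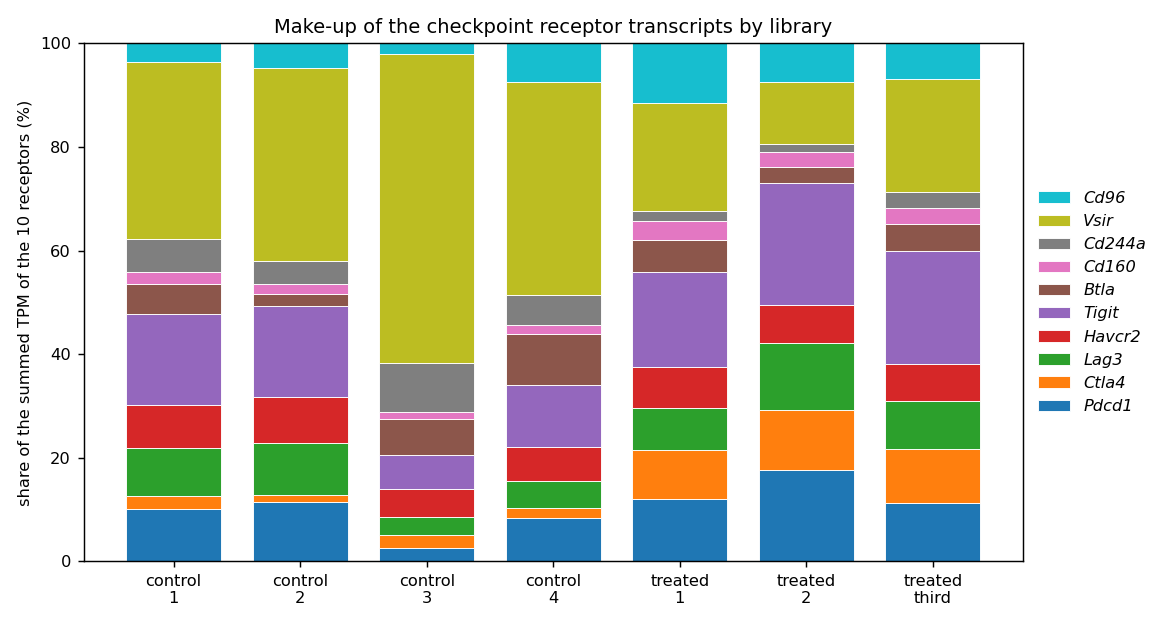
Share of the summed TPM of the 10 receptors taken by each, in percent, for each library. Vsir takes 34.3% to 59.7% in control and 11.9% to 22.0% in treated libraries, and Ctla4 takes 1.28% to 2.62% and 9.39% to 11.5%.

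Promoter sequence is shown for 3 receptors that rose and for Vsir, which did not pass, so that the letters in front of genes of both kinds can be read side by side. Windows are the 250 bases before the start of the gene in RefSeq, of build GRCm38.p6. Of the 10 receptors all but Lag3 had an entry, 9 in 10 windows. Capitals mark matches, on either strand, to short cores bound by factors of T cell activation and fate: TGANTCA (AP-1), GGAAA (NFAT), TGTGGT (RUNX) and TCACAC (T-box factors). Neighbouring matches may overlap.
Pdcd1 (chr1:94052554-94052803, minus strand): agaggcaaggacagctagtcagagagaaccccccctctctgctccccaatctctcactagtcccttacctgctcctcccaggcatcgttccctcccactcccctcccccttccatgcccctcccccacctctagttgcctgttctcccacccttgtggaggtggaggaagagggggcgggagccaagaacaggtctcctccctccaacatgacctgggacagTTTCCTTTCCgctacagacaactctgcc
Tigit (chr16:43664185-43664434, minus strand): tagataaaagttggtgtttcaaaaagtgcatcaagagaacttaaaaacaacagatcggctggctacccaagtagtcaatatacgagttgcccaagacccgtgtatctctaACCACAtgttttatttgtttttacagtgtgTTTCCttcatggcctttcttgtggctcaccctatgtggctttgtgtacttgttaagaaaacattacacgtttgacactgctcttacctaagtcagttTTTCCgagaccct
Cd96 (chr16:46120249-46120498, minus strand): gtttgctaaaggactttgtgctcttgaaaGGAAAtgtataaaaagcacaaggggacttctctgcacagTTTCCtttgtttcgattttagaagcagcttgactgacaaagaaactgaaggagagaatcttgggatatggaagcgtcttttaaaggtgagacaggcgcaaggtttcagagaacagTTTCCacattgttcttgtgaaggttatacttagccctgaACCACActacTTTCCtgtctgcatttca
Vsir (chr10:60346601-60346850, plus strand): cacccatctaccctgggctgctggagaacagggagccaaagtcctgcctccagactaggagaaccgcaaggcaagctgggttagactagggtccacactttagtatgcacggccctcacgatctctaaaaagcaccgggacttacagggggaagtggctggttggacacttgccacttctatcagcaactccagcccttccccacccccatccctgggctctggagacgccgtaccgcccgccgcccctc
An NFAT core was found for 6 of the 9 receptors, with 2 matches each in the Pdcd1 and Tigit windows, 4 in Cd96 and 0 in Vsir. The split did not follow the test: Havcr2 and Btla, which rose, and 1 of the 2 windows of Cd160 had 0, and Cd244a, which did not pass, had 1. This core is short, and 55.6% of 32851 promoter windows of the same length hold it. A RUNX core was found for 5 of the 9, Tigit and Cd96 among them, beside 14.0% of all windows. AP-1 cores were found for 2 (Havcr2 and Cd244a) and T-box cores for 2 (Btla and Cd160), beside 6.75% and 12.3% of all windows. A match is a description of letters and no sign of binding.

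Because T cell markers rose in the same libraries, each receptor was also set against Cd3e, which encodes CD3 epsilon, a part of the T cell receptor. Its control mean was 10.5 ± 3.42 TPM (SD, n = 4), its treated mean was 97.1 ± 67.4 TPM (SD, n = 3), and it rose by 2.92 (limma, Benjamini-Hochberg adjusted p = 0.000492). Per 100 TPM of Cd3e, 0 of the 10 receptors were higher in treated libraries by limma on the log2 ratio, with 0 at an unadjusted p under 0.05, beside 0.0802% of 14966 genes. By the same test 4 were lower, Cd244a, Vsir, Btla and Havcr2, beside 96.5% of all genes. The median difference of the log2 ratio was -0.58 over the 10 receptors and -3.31 over all genes. No receptor had all treated ratios above all control ratios, beside 0.0601% of genes. All these ratios share the same 7 values of Cd3e, so their errors move together. Limma pools the spread over genes as if they were independent, so its SE is not that of a single receptor. Its unadjusted p-values lay below the exact ones for Ctla4, Havcr2, Btla, Cd244a and Vsir and above them for the other 5. An exact permutation test of each ratio, two-sided over the 35 ways to choose 3 of 7 libraries and added after the data were seen, is therefore given beside it, with a smallest possible p of 0.0286.

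Cd244a per 100 TPM of Cd3e was 26.6, 16.8, 127 and 21.8 in control libraries and 3.52, 3.70 and 8.01 in treated ones, and every treated value lay below every control. The log2 difference of the ratio was -2.82 (limma adjusted p = 2.2e-05, exact permutation p = 0.0286). Vsir per 100 TPM of Cd3e was 145, 137, 807 and 153 in control and 35.6, 27.9 and 57.4 in treated libraries, again without overlap, with a difference of -2.52 (limma adjusted p = 4.3e-05, exact permutation p = 0.0286). Both had the smallest p that the permutation test allows, and both differences were smaller in size than the median of -3.31 over all genes. Without control replicate 3 and the third treated library together, the differences were -2.57 and -2.19. With Cd8a, the mean of 4 CD3 chains or the pan-leukocyte gene Ptprc as the reference they ran from -2.85 to -1.95 for Cd244a and from -2.56 to -1.65 for Vsir.

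Havcr2 per 100 TPM of Cd3e was 34.6, 33.2, 74.0 and 24.7 in control and 13.8, 17.1 and 18.4 in treated libraries, without overlap. The difference of -1.24 passed in limma (adjusted p = 0.0467) but not in the exact permutation test (p = 0.0571). The limma call was lost without any single control library, without treated replicate 1 or without the third treated library (-1.44 to -0.92, adjusted p = 0.0531 to 0.151), and the difference was -0.36 with Ptprc as the reference. Absence of overlap with the treated libraries below was found for 3 receptors, Havcr2, Cd244a and Vsir, and in 94.3% of all genes. Btla per 100 TPM of Cd3e ranged from 8.56 to 96.5 in control and from 7.24 to 13.4 in treated libraries. Its difference of -1.57 passed in limma (adjusted p = 0.0144), not in the exact permutation test (p = 0.143), and was -1.01 without control replicate 3 (limma adjusted p = 0.0748), -1.47 without control replicate 4 (adjusted p = 0.0566) and -0.69 with Ptprc as the reference (adjusted p = 0.231).

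The other 6 receptors did not pass either test relative to Cd3e. With a pseudocount of 5 in place of 0.1, Cd160 (-1.63, limma adjusted p = 0.00242) and Lag3 (-1.04, adjusted p = 0.0441) were lower as well. Pdcd1 stood at 42.4, 42.2, 34.7 and 31.4 per 100 TPM of Cd3e in control libraries and at 20.8, 41.5 and 29.3 in treated ones, with treated replicate 2 inside the control range. The log2 difference was -0.37 (SE of this gene alone 0.27, exact permutation p = 0.229). Cd96 was at 14.8, 17.2, 27.1 and 27.9 in control and within 17.7 to 20.0 in treated libraries, a difference of -0.23 (SE 0.27, exact permutation p = 0.4). Tigit ranged from 44.7 to 86.3 per 100 TPM of Cd3e in control and from 31.4 to 57.0 in treated libraries, Lag3 from 19.4 to 45.9 and from 13.9 to 30.1, and Cd160 from 6.20 to 17.7 and from 6.20 to 8.15. The groups overlapped for all 3. Tigit, Lag3 and Cd160 had differences of -0.51, -0.65 and -0.50 (SE 0.33, 0.42 and 0.40, exact permutation p = 0.2, 0.171 and 0.286). With Ptprc as the reference the differences of Pdcd1, Cd96, Tigit, Lag3 and Cd160 turned to values above 0, from 0.22 to 0.64, without passing.

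Ctla4 alone among the 10 had a ratio difference above 0 against Cd3e. Per 100 TPM of Cd3e it was at 10.9, 4.70, 35.5 and 6.98 in control libraries and at 16.2, 27.0 and 27.4 in treated ones. Every treated library lay above control replicates 1, 2 and 4 and below control replicate 3, where Ctla4 was at 1.94 TPM over a Cd3e level of 5.47 TPM. The difference was 0.99 (SE 0.73, limma adjusted p = 0.134, exact permutation p = 0.229). It was 1.54 without control replicate 3 (limma adjusted p = 0.00729) and 1.41 without that library and the third treated library (adjusted p = 0.0289). With a pseudocount of 5 in place of 0.1 it was -0.54 (adjusted p = 0.301), so that its sign depends on how low values are handled.

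**Figure D3:**
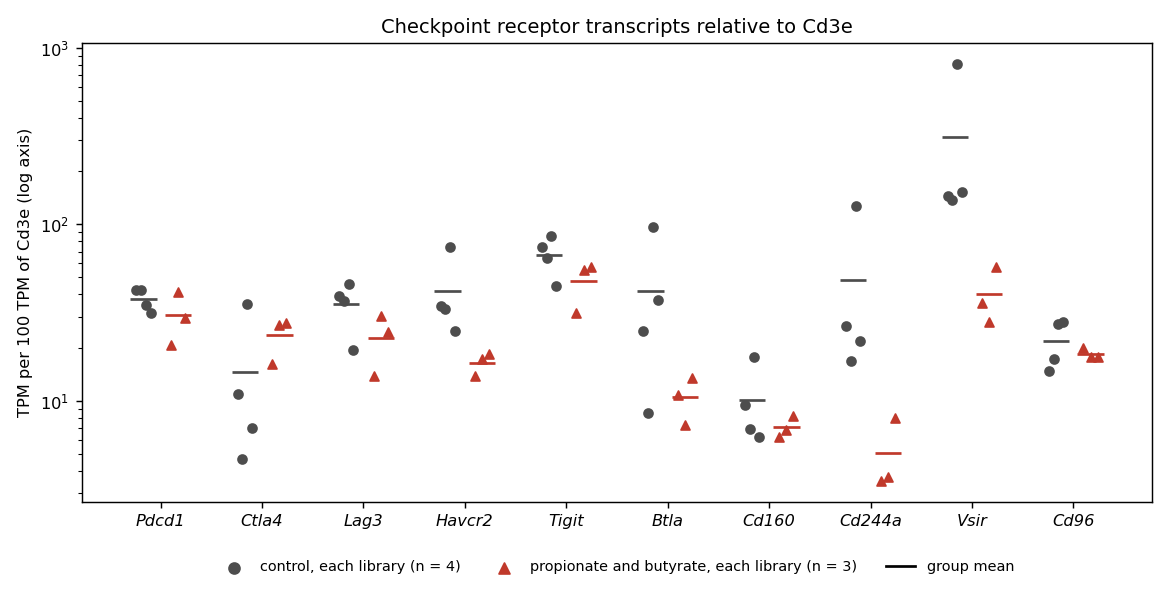
TPM of each receptor per 100 TPM of Cd3e in the same library, on a log axis, for 4 control (circles) and 3 treated libraries (triangles), with group means as bars. Havcr2, Cd244a and Vsir are separated with treated libraries below, and the highest control value of 8 receptors is that of control replicate 3.

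**Figure D4:**
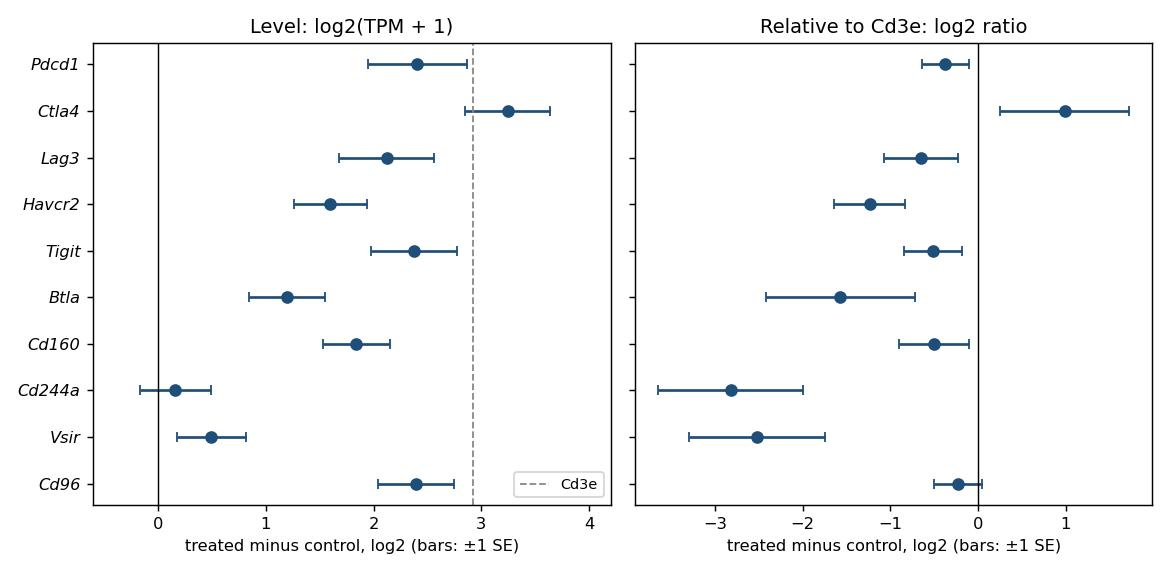
Log2 difference, treated minus control, of the level (left, limma, bars of 1 SE, dashed line at the Cd3e difference of 2.92) and of the ratio to Cd3e (right, bars of 1 SE from the spread of each gene alone, 7 libraries). On the right, Ctla4 is the receptor above 0, and Cd244a and Vsir are lowest at -2.82 and -2.52.

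Treated replicate 2 held the highest treated value of all 10 receptors. Its excess over the mean of the other treated libraries was 2.91 times for Cd3e. It was larger than that for 5 receptors, Pdcd1, Lag3, Tigit, Ctla4 and Havcr2, at 3.24 to 5.07 times, and smaller for Cd160, Cd96, Cd244a, Vsir and Btla, at 1.80 to 2.87 times. This is the value of a single library and was not tested.

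Of 18 genes that encode ligands of these receptors 14 were tested, 1 rose, 1 fell and 12 did not pass, where 11.9% of all tested genes passed in either direction (limma, with 2 higher and 3 lower at an unadjusted p under 0.05), with a median of -0.31 beside -0.24 over all genes. Cd48, the ligand of 2B4, had a control mean of 26.0 ± 10.4 TPM (SD, n = 4), a treated mean of 58.2 ± 31.0 TPM (SD, n = 3) and rose by 1.09 on the log2 scale (limma, Benjamini-Hochberg adjusted p = 0.0448). Nectin2, a ligand of TIGIT, had a control mean of 162 ± 23.7 TPM (SD, n = 4), a treated mean of 89.5 ± 25.8 TPM (SD, n = 3) and fell by 0.87 (limma, adjusted p = 0.0193). Nectin1 had a difference of -0.59 (adjusted p = 0.0854). Cd274, which encodes PD-L1 and was named after its value was seen, was at 8.36 ± 2.72 TPM (SD, n = 4) and 13.3 ± 4.69 TPM (SD, n = 3), with a difference of 0.61 (adjusted p = 0.147).

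Activating receptors that share those ligands, or pair with them, made a second list. Of its 7 genes, among them Tnfrsf14 of the ligand list, 6 were tested. Of these 4 rose and 0 fell (limma, with 5 higher and 0 lower at an unadjusted p under 0.05), beside 4.30% and 7.59% of all tested genes. Their median was 2.12, beside -0.24 over all genes. Cd28, the activating counterpart of Ctla4, rose by 2.73, with a control mean of 1.10 ± 0.277 TPM (SD, n = 4) and a treated mean of 15.3 ± 11.4 TPM (SD, n = 3). Cd226, the counterpart of Tigit and Cd96, rose by 2.82 and Cd2, an adhesion receptor that binds CD48, by 2.37. The fourth, Icos, named after its value was seen, rose by 1.87. Icos was at 0.51 to 0.91 TPM in control libraries and passed the filter through the treated libraries. Relative to Cd3e, Cd28 and Cd226 differed by 0.40 and 0.22, Icos by -0.37, Cd2 by -0.59 and Tnfsf14 by -1.51, none of which passed limma, and Tnfrsf14 was lower at -2.46 (adjusted p = 6.3e-05). The median of these 6 was -0.48, beside -3.31 over all genes, of which 96.5% were lower.

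Of 14 signalling partners 13 were tested, 5 rose and 0 fell (limma, with 7 higher and 1 lower at an unadjusted p under 0.05). For all tested genes the shares were 4.30% and 7.59%. The median was 0.63 for the partners and -0.24 over all genes. Ptpn22, a phosphatase of the receptor signal, Lck, the kinase that starts it, and Sh2d1a, the adaptor SAP that binds 2B4, rose by 2.68, 2.87 and 2.75. Sit1, at 0.24 to 0.67 TPM in control libraries, passed the filter through the treated libraries. Sit1 and Ubash3a, named after their values were seen, rose by 1.84 and 2.18. Ptpn6 and Ptpn11, named likewise, encode the phosphatases SHP-1 and SHP-2 that bind inhibitory receptor tails. They differed by 0.46 and -0.22 and did not pass (limma, Benjamini-Hochberg adjusted p = 0.301 and 0.462).

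Transcription factors tied to inhibitory receptor expression moved in 1 direction where they passed. Of 16 such genes 15 were tested, 11 rose and 0 fell (limma, with 14 higher and 0 lower at an unadjusted p under 0.05). Over all tested genes 4.30% rose and 7.59% fell. Of the 11, Tbx21, Prdm1 and Nr4a3 passed the filter through the treated libraries. In control libraries they were at 0.47 to 1.07, 0.44 to 1.29 and 0.17 to 0.31 TPM. Prdm1 and Nr4a3 were named after their values were seen. The median was 1.33 for the factors and -0.24 over all genes. Eomes, Tbx21 and Tox, factors of effector and exhausted T cells, rose by 2.54, 2.27 and 2.25. The control mean of Eomes was 1.56 ± 0.672 TPM (SD, n = 4) and its treated mean 15.7 ± 11.4 TPM (SD, n = 3). Relative to Cd3e the 3 differed by 0.09, 0.11 and -0.26, none of which passed limma. Of the 15 tested factors 7 were lower relative to Cd3e and 0 higher (limma, with 7 and 0 at an unadjusted p under 0.05). Their median was -1.04, beside -3.31 over all genes, of which 96.5% were lower and 0.0802% higher. Among 16 further inhibitory receptors the median was 0.24, beside -0.24 over all genes. All 16 were tested, 3 rose and 0 fell (limma, with 5 higher and 0 lower at an unadjusted p under 0.05), beside 4.30% and 7.59% of all tested genes. Those 3, Klrc1, Cd5 and Klrg1, are lymphocyte genes and rose by 3.09, 2.68 and 1.74. Klrg1, at 0.39 to 0.76 TPM in control libraries, passed the filter through the treated libraries.

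The genes whose log2 level ran most like each receptor over the 7 libraries are given as a description. All 7 points share the 2 groups and the high treated replicate 2, so high correlations are common. For Cd96 they were Cd247, the CD3 zeta chain (Pearson r = 0.999), and Gimap1os (r = 0.999). Ctla4 ran most like Tespa1 (r = 0.994) and Itgal (r = 0.991), and Tigit most like Gzmb (r = 0.996), a granule protease, and Tox (r = 0.995). For Pdcd1 they were Glp1r and Sytl3 (r = 0.997 each), for Lag3 Nr4a2 (r = 0.997) and Crmp1 (r = 0.989), for Havcr2 Pvrig (r = 0.994) and Stk32c (r = 0.993), and for Cd160 Padi2 (r = 0.995) and Prkch (r = 0.994). Btla ran most like Bcl11a (r = 0.993), a B cell and dendritic cell factor, and BC147527 (r = 0.989). The closest to Cd244a were Bcl2a1b (r = 0.992) and Cyba (r = 0.991), a subunit of the phagocyte oxidase, and the closest to Vsir were Cyp4v3 (r = 0.994) and AB124611 (r = 0.979). With Cd3e, r was 0.933 to 0.983 for Pdcd1, Ctla4, Lag3, Havcr2, Tigit, Cd160 and Cd96, 0.718 for Btla, 0.402 for Vsir and 0.144 for Cd244a.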

How the data were processed

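Values came as TPM in a single table that the authors deposited, with 149132 transcript rows that carry gene symbols and no other identifier. Per the submitters' processing notes, fastp, HISAT2, StringTie and the build mm39 were used. No version is named, and which of them computed TPM is not stated there. Columns were matched to samples by name. The column of the third treated library carries a number that no treated sample has, so it was not paired by number. In the replicate block fit it shared a block with the control libraries not numbered 1 or 2.

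TPM was summed per symbol. Rows without a symbol, 1001 of them (0.307% to 0.618% of TPM), were left out. Genes with at least 1 TPM in at least 3 of 7 libraries were tested in R 4.3.3 with limma 3.58.1, with an intensity trend, on log2(TPM + 1), a scale that understates changes of low genes, and on the log2 ratio to Cd3e with a pseudocount of 0.1, with Benjamini-Hochberg adjustment over all tested genes. The models were also run on simulated data with genes drawn independently. For the ratios, Cd3e was nearly constant there and did not differ between the groups. In the real data Cd3e rose by 2.92 and varied between libraries, so that run cannot check the ratio model on this point. The depth is unknown, so no counting interval was computed.

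The receptors, gene lists and tests were chosen with earlier results of these data known. Named genes are the receptors, Cd3e, up to 3 genes per list by smallest limma p, and for each receptor the 2 most correlated genes. Those 2 were taken after leaving out the other receptors, T cell receptor segments, immunoglobulin genes, and model-number or predicted names. Alternatives changed the pseudocount, filter, scaling, reference gene, variance model, library weights, replicate block and threshold, and left out each library.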

Additional observations from a re-analysis of the deposited data

Results flagged for a closer look

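In control replicate 3, 3 values stood apart from the other 3 control libraries by more than Dixon's limit for 4 samples. Vsir was at 44.2 TPM, against 16.3 to 18.9 TPM in the others. Per 100 TPM of Cd3e, Vsir was at 807 against 137 to 153, and Cd244a at 127 against 16.8 to 26.6. The 2 ratios share the low Cd3e level of that library, 5.47 TPM against 11.6 to 13.1, so the 3 values are not independent. The limit was applied to the control TPM of the 10 receptors and of Cd3e and to the 10 ratios to Cd3e. Chance marks about 1 in 20 groups by this limit. The treated group, with 3 libraries, was not examined this way. The comparison of Vsir with and without this library is given with its level above.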

How the results depend on the processing

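Among the 10 receptors, the number that rose was 8 and stayed between 7 and 9 when any single library was left out, was 8 under both other scalings, and was 6 without control replicate 3 and the third treated library together, an alternative chosen after seeing the data. It was 4 with robust variance estimation, which left Ctla4, Havcr2, Cd160 and Cd96. It was 0 of 10 with no filter on low values, where 29687 genes entered the limma fit and 8 receptors had an unadjusted p under 0.05. The median over all genes was -0.24 as deposited, -0.02 with median-of-ratios scaling and -0.15 without mitochondrially encoded genes, and the receptors' median lay 2.22, 2.19 and 2.29 above it. The log2 difference of Cd244a was -0.02 without control replicate 2, and leaving out each library gave -0.13 (without treated replicate 2) to 0.45 (without control replicate 3), without passing.

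Of all genes, 643 rose and 1136 fell. With no filter 3 and 4 did, with array weights 2246 and 4221, and 1292 rose with median-of-ratios scaling, where 56.1% of calls were higher, against 36.1%. Without mitochondrially encoded genes 1872 fell, at a threshold of 0.1 2292, and 267 without control replicate 3 and the third treated library. Leaving out each library gave 388 to 794 that rose and 585 to 2909 that fell, the highest without treated replicate 1 and at most 730 without control replicate 1, 2 or 3, treated replicate 2 or the third treated library. Without treated replicate 2, 388 rose.

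Relative to Cd3e, 12 genes were higher and 14437 lower. The higher number was 4, 2 and 0 with pseudocounts of 0.5, 1 and 5, (limma, 0 at an unadjusted p under 0.05 with a pseudocount of 5), 6 when at least 5 TPM was required, 76 with array weights, 44 with Ptprc as the reference and 7 to 20 on leaving out each library, and 28653 were lower with no filter. Among the receptors 4 were lower and 0 higher. The number lower was 6 with a pseudocount of 5, 2 when at least 5 TPM was required, 7 with array weights, 2 with Ptprc and 2 to 4 on leaving out each library. The number higher was 1 with array weights, with Ptprc, and without control replicate 3 and the third treated library, and 0 to 1 on leaving out each library, Ctla4 each time. With Ptprc the ratio differences turned for Pdcd1 (0.50), Lag3 (0.22), Tigit (0.36), Cd160 (0.37) and Cd96 (0.64), and with a pseudocount of 5 for Ctla4 (-0.54). The causes were not tested.

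In the replicate block fit, all libraries not numbered 1 or 2 formed a common block. The replicate block (numbers 1 and 2, shared by name only, whose deviations correlated at -0.02 and -0.09) gave 870 genes that rose and 1507 that fell, and 8 receptors that rose. Relative to Cd3e it gave 16 higher and 14428 lower, and it changed no call of a receptor. TPM carries no depth, which limits what can be said of receptors near 1 TPM.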
